A study of Mus musculus and Ochotona curzoniae and Rattus norvegicus with 18 samples.

Results

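The genes described are 10 regulators of actin and myosin contraction, the transgelins TAGLN and TAGLN2, the calponins CNN1, CNN2 and CNN3, the myosin genes MYL9, MYH11 and MYLK, caldesmon (CALD1) and the transcription factor SRF. They were chosen by gene symbol, with earlier results of these data known. Their levels were compared between cultured skin fibroblasts of the Tibetan pika (Ochotona curzoniae), a small high-altitude relative of rabbits, and of the C57BL/6J mouse. Each species had 3 RNA-seq libraries. Of the 10 symbols, 9 were joined between the species, among 14418 joined genes in all. CNN2 was matched in the mouse tables alone, so its level is given for mouse only. Both sets of cells carry the source label fibroblast and the tissue label epidermis. They were grown in DMEM with 10% FBS and lysed at 90% confluency, with no drug or genetic change in the labels. The series also holds 3 rat libraries and 3 rabbit libraries, which lack a table linking identifiers to symbols here, and 6 ChIP-seq samples of mouse fibroblasts. None of these is analysed here.

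In smooth muscle and in myofibroblasts, force comes from myosin II sliding on actin filaments once its regulatory light chain has been phosphorylated. Myosin light chain kinase, switched on by calcium and calmodulin, adds that phosphate, and a phosphatase removes it. Transgelins, calponins and caldesmon bind along the actin filament, where calponin and caldesmon restrain myosin. SRF binds the CArG box, a short element in many of these genes, together with myocardin-related cofactors, and in fibroblasts the same genes are known as marks of the contractile, myofibroblast state.

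Values are FPKM, the fragments of a gene relative to its length and its library's total, rescaled so that the joined genes of each library sum to 1000000. The rescaling matters, because the joined genes held 87.1% of the deposited FPKM in each pika library and 37.0% to 38.3% in the mouse libraries. Libraries held 7703576 to 8481030 reads in pika and 3663102 to 5758950 in mouse, worked out from the steps between the deposited values. Reads per gene obtained this way can be too small by a whole-number factor. Each fold change divides pika by mouse and is given as log2 after 1 was added to every value, which understates the change of low genes, and a gene was called when its limma-trend adjusted p was under 0.05 and its log2 fold change was at least 1 in size. The labels do not state whether replicate libraries derive from different animals or dishes, so the p-values reflect library-to-library spread only, possibly technical. Species, genome and gene annotation cannot be told apart in this design, nor can fewer cells of a type from less RNA per cell.

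The contractile regulators did not move as a block. CNN1, MYL9, MYH11 and MYLK were lower in pika fibroblasts, TAGLN2 was higher, and TAGLN, CNN3, CALD1 and SRF stayed inside the fold minimum. Of the 9 joined genes, 1 was thus called higher and 4 lower. Over all 10348 tested genes, 52.2% were called, 28.7% as higher and 23.5% as lower in pika. A call in itself is therefore common in this comparison of species, and the size of the differences says more. The log2 fold changes of all tested genes had quartiles of -0.90 and 1.17 and a 5th to 95th percentile of -3.61 to 2.80. Of the called genes, only CNN1 (-8.35) lay outside that wider range, while MYL9, MYLK, MYH11 and TAGLN2 lay within it. The median log2 fold change was -0.97 over the 9 genes and 0.21 over all tested genes. The 3 pika values and the 3 mouse values did not overlap for any of the 9, not even for CNN3 and CALD1 with their small differences. How many of all tested genes lack overlap is not given here, so this count is not a trait of the 9.

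**Figure D1:**
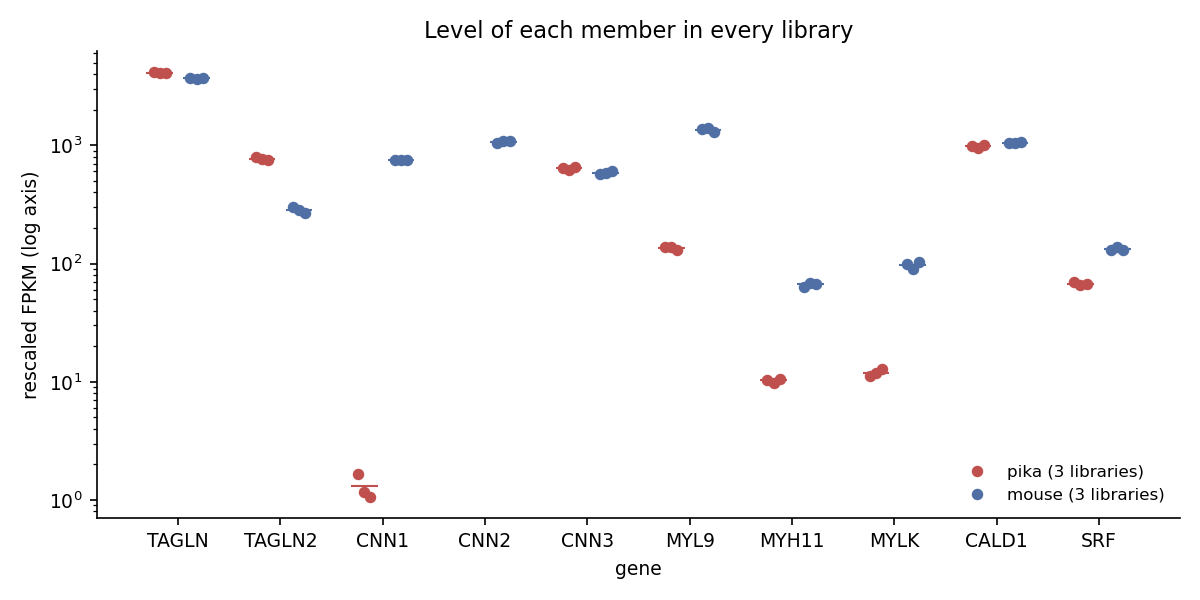
Rescaled FPKM of the 10 genes on a log axis, one point for each library, with pika (red) left of mouse (blue) and a line at each mean. CNN1 lies between 1.07 and 1.67 in pika and between 743 and 746 in mouse, while TAGLN, CNN3 and CALD1 are at similar heights in both species; CNN2 is shown for mouse only.

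TAGLN, also called SM22 alpha, encodes an actin-bundling protein of smooth muscle and an early mark of its differentiation. It was the most abundant of the genes in both species. TAGLN was at 4163, 4109 and 4081 rescaled FPKM in the pika libraries, against 3711, 3664 and 3691 in the mouse libraries. The difference was small beside those of the genes below, with a log2 fold change of 0.16 (SE 0.02, limma-trend adjusted p = 3.5e-05). Its direction depends on the scale, since it was -0.076 with median-of-ratios scaling and -0.25 on reads without division by gene length. Mouse Tagln spans chromosome 9, 45929628 to 45936058, in GRCm38.p6, the build of all mouse positions given here.

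TAGLN2 encodes the transgelin found widely outside muscle. It was at 802, 765 and 749 rescaled FPKM in the pika libraries, against 298, 281 and 269 in the mouse libraries. All pika libraries were more than double any mouse library, and the ratio of the means was 2.73. The log2 fold change was 1.45 (SE 0.04, limma-trend adjusted p = 1.7e-09), and it stayed above the fold minimum under every alternative run. Mouse Tagln2 spans chromosome 1, 172500246 to 172507375. Within a library, TAGLN made up 83.8%, 84.3% and 84.5% of the summed transgelin level in pika, against 92.6%, 92.9% and 93.2% in mouse. This share does not depend on the scale set between species, but it does depend on the gene model lengths. Its means differed by -8.67 percentage points, with an exact two-sided permutation p of 0.10, the smallest that 3 against 3 libraries can give, and 0.10 after adjustment over 3 shares. On reads without gene length the difference was -10.8 percentage points.

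The calponins separated most sharply. CNN1 encodes basic calponin, the smooth muscle form that inhibits the myosin motor on actin. CNN1 was at 1.67, 1.17 and 1.07 rescaled FPKM in the pika libraries, against 743, 746 and 746 in the mouse libraries. Every mouse library was thus far above every pika library. The log2 fold change was -8.35 (SE 0.10, limma-trend adjusted p = 9.4e-12), the largest of the 9. The pika level rested on 7 reads over the 3 libraries, or a whole multiple of 7, against 5435 in mouse. The ratio of mouse over pika from these reads was 572, with an exact 95% interval of 277 to 1422.5 that covers counting error only. The pika gene model came out at 477 bases, or a multiple of this, and the mouse model at 2736. Mouse Cnn1 spans chromosome 9, 22099221 to 22109221.

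CNN3 encodes acidic calponin, the form best known from non-muscle cells. It was at 644, 612 and 657 rescaled FPKM in the pika libraries, against 574, 583 and 605 in the mouse libraries. The log2 fold change was 0.12 (SE 0.04, limma-trend adjusted p = 0.011) and turned to -0.12 with median-of-ratios scaling, so no direction can be given. CNN2, the calponin shared by smooth muscle and non-muscle cells, was at 1039, 1088 and 1096 in the mouse libraries. In mouse, CNN2 made up 44.1% to 45.0% of the 3 calponins, CNN1 30.5% to 31.6% and CNN3 24.1% to 24.7%. Of the summed CNN1 and CNN3, a share added after seeing the data, CNN1 was 0.259%, 0.191% and 0.162% in the pika libraries, against 56.4%, 56.1% and 55.2% in the mouse libraries (exact two-sided permutation p = 0.10, adjusted p = 0.10). In that pair, the pika fibroblasts thus had nearly all of their calponin transcript from CNN3, and the mouse fibroblasts had it split. Mouse Cnn3 spans chromosome 3, 121426541 to 121458205, and Cnn2 chromosome 10, 79988600 to 79995400.

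The 3 myosin genes were all lower in pika. MYL9 encodes the regulatory light chain of smooth muscle myosin, the protein that is phosphorylated. It was at 139, 138 and 131 rescaled FPKM in the pika libraries, against 1384, 1387 and 1286 in the mouse libraries. The pika libraries were close to a 10th of the mouse libraries (mouse over pika 9.96, log2 fold change -3.31, SE 0.04, limma-trend adjusted p = 1.1e-11). MYL9 was second in order of level in mouse, behind TAGLN, and 5th of the 9 in pika. MYL12A and MYL12B, which encode nearly identical light chains, were matched in mouse alone, where MYL9 made up 53.6% to 55.1% of the 3. Reads can be split between such similar genes. In mouse, Myl9 spans chromosome 2, 156775408 to 156781657.

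MYH11 encodes the smooth muscle myosin heavy chain, a mark of mature smooth muscle. It was at 10.4, 9.79 and 10.5 rescaled FPKM in the pika libraries, against 63.4, 69.0 and 67.4 in the mouse libraries. The log2 fold change was -2.59 (SE 0.08, limma-trend adjusted p = 2.5e-09), from 344 reads in pika and 1171 in mouse. Among the heavy chains MYH9, MYH10 and MYH11, MYH11 held 0.743%, 0.711% and 0.779% in the pika libraries, against 4.47%, 4.93% and 4.78% in the mouse libraries (exact two-sided permutation p = 0.10, adjusted p = 0.10). The means differed by -3.98 percentage points, and by -2.15 on reads without gene length. MYH11 was thus a minor chain in both species. In mouse, Myh11 spans chromosome 16, 14194527 to 14292188.

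MYLK encodes the kinase that phosphorylates the light chain. It was at 11.2, 11.9 and 12.7 rescaled FPKM in the pika libraries, against 99.5, 89.2 and 103 in the mouse libraries. The mouse mean was 8.16 times the pika mean, with a log2 fold change of -2.93 (SE 0.09, limma-trend adjusted p = 1.5e-09). MYLK and the light chain gene MYL9 were thus lower by similar factors, 8.16 for MYLK and 9.96 for MYL9. The similar light chain genes MYL12A and MYL12B have no pika value here, so the summed light chain level in pika is not known. In mouse, Mylk spans chromosome 16, 34745199 to 35002436, and is known to give long and short products, which a single value per gene does not separate.

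CALD1 encodes caldesmon, which ties actin to myosin and restrains the motor until calcium-bound calmodulin releases it. It was at 995, 946 and 1002 rescaled FPKM in the pika libraries, against 1045, 1042 and 1059 in the mouse libraries. The log2 fold change was -0.10 (SE 0.03, limma-trend adjusted p = 0.011), and 1.195 without rescaling, where CALD1 was called higher. CALD1 was second in order of level in pika and 4th in mouse, where CNN2, absent from the pika order, was 3rd. In mouse the range of CALD1 overlapped that of CNN2, the only pair of neighbours in either order whose ranges overlapped. In mouse, Cald1 spans chromosome 6, 34598495 to 34775469.

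SRF encodes the transcription factor that binds the CArG box. It was at 69.2, 65.6 and 67.1 rescaled FPKM in the pika libraries, against 130.5, 137 and 130.4 in the mouse libraries. The mouse mean was 1.97 times the pika mean. The log2 fold change of -0.97 (SE 0.05, limma-trend adjusted p = 5.4e-08) lay just inside the fold minimum. SRF passed as lower with TMM scaling (-1.18), with median-of-ratios scaling (-1.20), on reads without gene length (-1.50) and with voom on reads (-1.515). It was at 0.31 without rescaling, where the median over all tested genes was 1.285. In mouse, Srf spans chromosome 17, 46546838 to 46558267.

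The mouse promoters of the genes were searched for the CArG box, because SRF is both a member and the factor that reads it. RefSeq sequences of GRCm38.p6, 250 bases before to 50 after each start site, covered 8 of the 10 genes, not TAGLN or MYH11. A CArG box was found in 3 of these 8 genes, MYL9, SRF and CNN2, and in 1.63% of all 32851 promoters of that length. The first count is per gene and the second per promoter, since the 32851 promoters belong to 27025 genes. The pattern reads the same on both strands. A match is a description of the letters and not evidence of binding, and no match says only that the box is not in this window. The 120 bases around the boxes are shown 5′ to 3′ on the gene's strand, with the box in capitals, for Myl9 (chr2:156775248-156775367, plus strand), Srf (chr17:46556170-46556289, minus strand) and Cnn2 (chr10:79988480-79988599, plus strand).
Myl9: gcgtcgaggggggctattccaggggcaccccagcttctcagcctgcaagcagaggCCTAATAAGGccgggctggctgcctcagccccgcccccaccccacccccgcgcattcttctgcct
Srf: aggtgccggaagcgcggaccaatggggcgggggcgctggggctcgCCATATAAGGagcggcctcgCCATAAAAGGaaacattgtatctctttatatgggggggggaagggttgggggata
Cnn2: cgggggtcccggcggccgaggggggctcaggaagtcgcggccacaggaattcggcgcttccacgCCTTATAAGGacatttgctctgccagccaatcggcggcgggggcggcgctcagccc
Positions are counted from the start site of the RefSeq promoter entry, which for Srf lies inside the gene span given above and for Myl9 just inside it. The box began 161 bases before that start in Myl9 and 56 in Cnn2. Srf held a pair of boxes, beginning 82 and 62 bases before that start. MYL9, with a box, was lower in pika, as were CNN1 and MYLK, in whose windows no box was found.

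CNN1, MYL9, MYH11, MYLK and TAGLN2 kept their calls and directions under each scaling run. Without rescaling, the median over all tested genes was 1.29, and 58.3% of tested genes were then called higher and 10.7% lower in pika. Of the 9 genes, 4 were then called higher, among them TAGLN (1.45), CNN3 (1.41) and CALD1 (1.195), and the same 4 genes were lower. Set against the median of all genes, CNN1 was at -8.56 on the joined-gene scale and -7.75 without rescaling, MYL9 at -3.52 and -3.29, MYLK at -3.14 and -2.85, and MYH11 at -2.80 and -2.52. TAGLN2 was at 1.24 and 1.44, and SRF at -1.18 and -0.98. TAGLN (-0.053 and 0.17) and CNN3 (-0.09 and 0.12) lay near the median and changed sign, and CALD1 (-0.31 and -0.09) lay below it. The mouse models came out 1.37 to 5.74 times as long as the pika models, with the largest ratio for CNN1. On reads without gene length the 4 lower genes were at -8.62 (CNN1), -3.26 (MYL9), -2.74 (MYLK) and -2.74 (MYH11). Lengths and reads worked out this way can be too small by a whole-number factor, so these ratios and fold changes can be off by such factors.

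**Figure D2:**
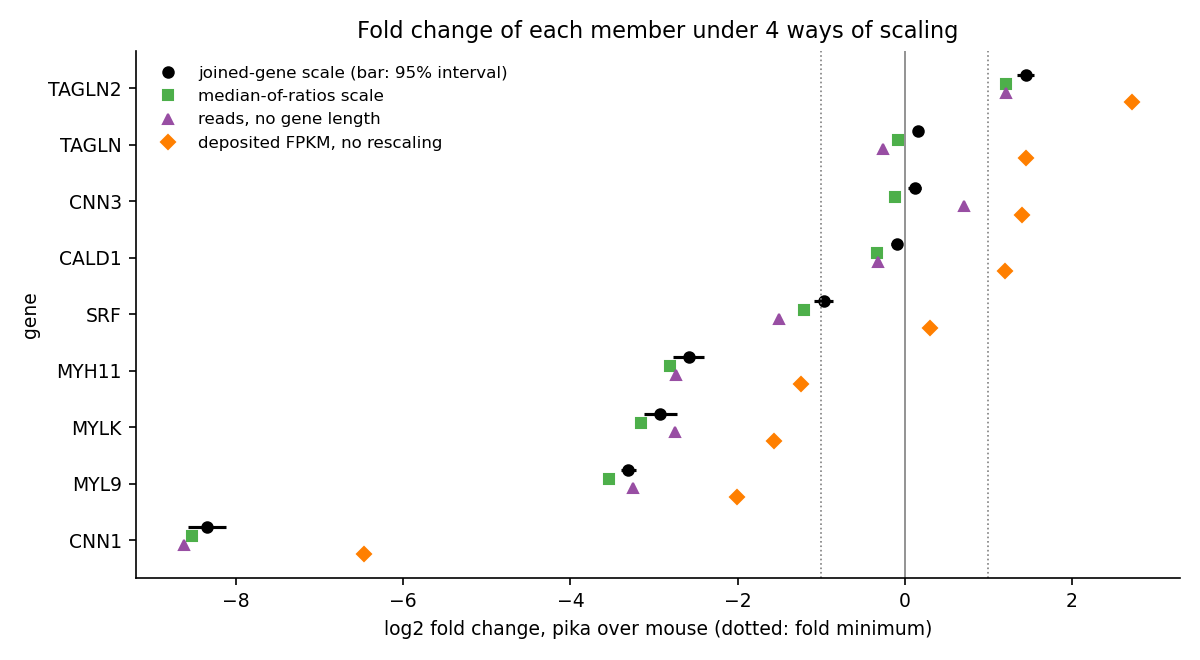
Log2 fold change of the 9 joined genes, pika over mouse, under 4 ways of scaling, with the 95% interval of the joined-gene scale as a bar and the fold minimum of 1 dotted. CNN1, MYL9, MYLK and MYH11 lie left of -1 and TAGLN2 right of 1 under all 4, while TAGLN, CNN3, CALD1 and SRF cross 0.

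On the joined-gene scale, the make-up of the 9 transcripts differed more than their sum, which was 6659 to 6835 rescaled FPKM in pika and 7957 to 8049 in mouse. The sum depends on the scale set between species, so no direction is read from it. The percentages within a library do not depend on that scale, though they do on gene model lengths. TAGLN took 60.8% to 61.7% of the sum in the pika libraries, against 45.8% to 46.4% in the mouse libraries. TAGLN2 took 11.2% to 11.7% in pika, against 3.38% to 3.70% in mouse. MYL9 took 1.95% to 2.08% in pika and 16.2% to 17.3% in mouse, and CNN1 0.0159% to 0.0244% in pika and 9.24% to 9.38% in mouse. CALD1 was closer, at 14.2% to 14.9% in pika and 12.98% to 13.3% in mouse. TAGLN exceeded CNN1 by a factor of 2494 to 3817 in pika, against 4.91 to 4.99 in mouse, and MYL9 by 29.7 to 31.2 in pika, against 2.64 to 2.87 in mouse. TAGLN, CNN1 and MYL9 are all known smooth muscle marks, and their levels did not keep a common ratio between the species.

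**Figure D3:**
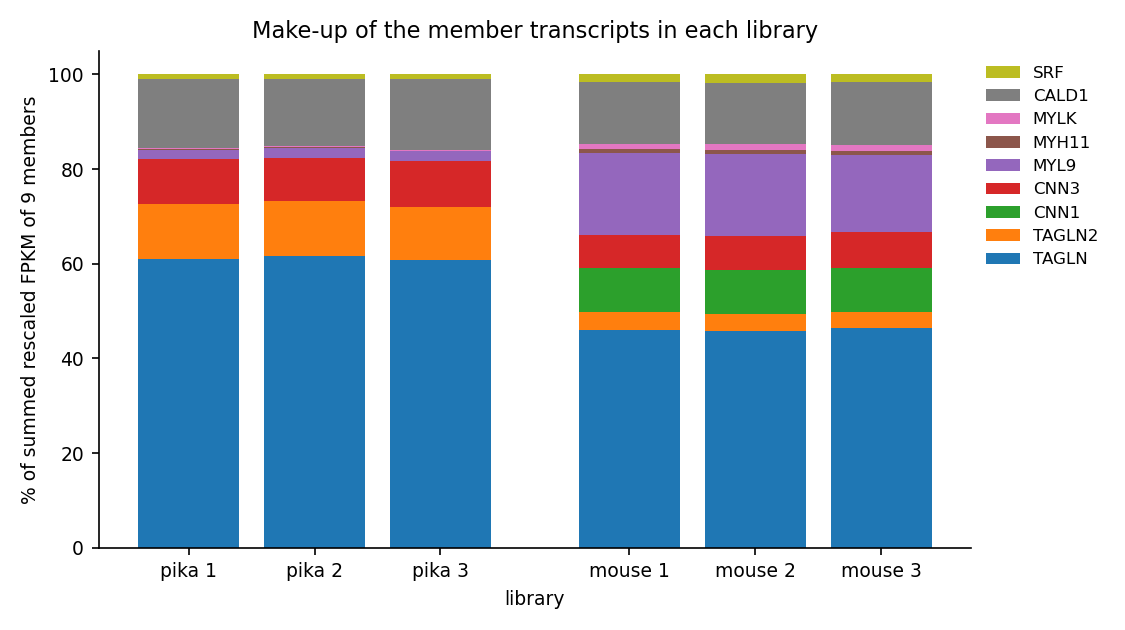
Percent of the summed rescaled FPKM of the 9 joined genes taken by each, in the 3 pika libraries (left) and the 3 mouse libraries (right). The bands for CNN1 and MYL9, visible in mouse at 9.24% to 9.38% and 16.2% to 17.3%, are at most 0.0244% and 2.08% in pika, where TAGLN and TAGLN2 are wider.

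Replicates lay close together, with a coefficient of variation of at most 7.49% for the 9 genes in either species, except for CNN1 in pika at 24.6%. The order of level was TAGLN, CALD1, TAGLN2, CNN3, MYL9, SRF, MYLK, MYH11 and CNN1 in pika. In mouse it was TAGLN, MYL9, CNN2, CALD1, CNN1, CNN3, TAGLN2, SRF, MYLK and MYH11. The closest neighbours in pika were MYLK, at 11.2 to 12.7, and MYH11, at 9.79 to 10.5. The 3 genes outside the lists whose levels over the 6 libraries lay nearest to those of CNN1, by Euclidean distance of log2(value + 1), were ADM (0.965), ITM2C (1.44) and IL1RL1 (1.51). ADM, which encodes the vasodilating peptide adrenomedullin, averaged 2.17 in pika and 698 in mouse. These distances mostly reflect the gap between the species.

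Other smooth muscle filament and actin-linked genes were called lower in 9 of the 16 tested, higher in 1 and not called in 6, with a median log2 fold change of -1.35. Among all tested genes, 23.5% were called lower and 28.7% higher, the shares to set beside this count and those of the lists below. All of these lists were chosen with earlier results of these data known, so their counts are descriptions only. ACTA2, whose actin is a standard myofibroblast mark, stood at 17.0 to 21.3 in pika and 9468 to 9729 in mouse (limma-trend log2 fold change -8.92). ACTG2, the enteric smooth muscle actin, was at 0.192 to 0.211 in pika, where the values came from 1 read or a multiple of it in each library, and at 943 to 998 in mouse. Its ratio of mouse over pika was 4834, with an exact 95% interval of 1650 to 23468 from counting error alone. That ratio depends on the gene models, which came out at 1324 bases in pika and 519 in mouse, or multiples of these. For ACTG2 the log2 fold change was -9.66 on rescaled FPKM, -6.83 on reads without gene length and -9.26 with voom on reads. The tropomyosin TPM2 (-7.56) and LMOD1 (-5.14), which encodes a smooth muscle leiomodin, were lower too. Actins and tropomyosins are similar in sequence, so reads can be split between members. TPM1 averaged 2240 ± 36.6 in pika, against 1426 ± 14.3 in mouse (SD, n = 3 each), and was not called. The LIM protein gene CSRP1, at 1441 ± 3.39 in pika against 1614 ± 33.4 in mouse, was not called either.

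Other chains of non-muscle myosin II went both ways, with 2 of 5 tested called higher, 1 lower and 2 not called (median -0.48). MYH10, the heavy chain of non-muscle myosin IIB, was at 463 to 476 in pika and 84.1 to 90.4 in mouse (2.43), and MYH14 was also higher (2.48) at a low level, 6.40 to 7.12 in pika and 0.128 to 0.597 in mouse. MYH9, the heavy chain of IIA, was not called (-0.48). The essential light chain MYL6 was called lower (-1.04), but was at 0.26 without rescaling and 0.24 on reads. MYH11 was thus lower in pika while MYH10 was higher, and the 3 heavy chains together were still dominated by MYH9 in both species.

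Of 14 genes that act on light chain phosphorylation, 4 were called higher, 2 lower and 8 not called (median 0.38). The part called higher was close to the 28.7% of all tested genes, and 23.5% of all were lower. DAPK3, a kinase that can phosphorylate the light chain without calcium, was at 414 to 442 in pika and 78.7 to 87.1 in mouse (2.35). PPP1CB, the catalytic subunit of the light chain phosphatase, was at 440 to 463 in pika and 123 to 130 in mouse (1.82), and stood at 0.98 without gene length. RHOA, a GTPase that promotes contraction, was higher (1.66, and 0.43 without gene length), and its relative RHOB lower (-1.78, and -0.48 without rescaling). CALM2, which encodes calmodulin, was not called (0.59). DAPK3 and PPP1CB were thus called higher in pika beside the lower MYLK.

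None of the 4 tested SRF partners was called (median 0.40). ELK3 (0.22) and ELK4 (0.17), ternary complex factors that bind next to SRF, changed sign with median-of-ratios scaling (-0.0077 and -0.056). Myocardin, the strongest SRF cofactor of smooth muscle (MYOCD), averaged 2.55 ± 0.608 in pika and 1.40 ± 0.578 in mouse (SD, n = 3 each). The cofactor genes MRTFA and MRTFB carry their older symbols in the pika tables and were joined only in an alternative chosen after seeing the data. There MRTFA averaged 34.2 ± 2.66 in pika, against 90.4 ± 2.16 in mouse (3 libraries each, SD; log2 fold change -1.38, limma-trend adjusted p = 5.7e-08), and MRTFB 31.5 ± 2.39 in pika, against 32.7 ± 3.48 in mouse. The family relatives TAGLN3, MYLK2, MYLK3, MYLK4, MYH3 and MYH7 had a mean under 1 deposited FPKM in both species and were not tested. Their summed rescaled level was 3.37 to 4.79 in pika and 5.15 to 7.47 in mouse.

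**Figure D4:**
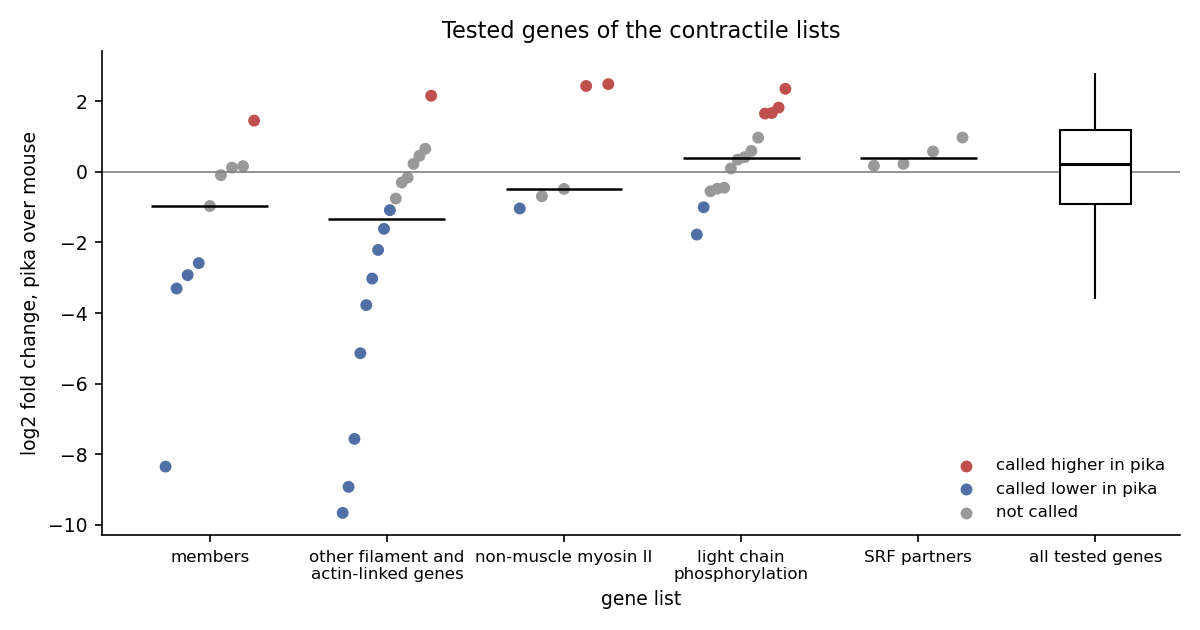
Log2 fold change, pika over mouse, of every tested gene of the contractile lists, coloured by call, with a line at each list's median, beside the 5th to 95th percentile, quartiles and median of all tested genes. The medians are -0.97 for the 9 members, -1.35 for other filament genes, -0.48 for non-muscle myosin II, 0.38 for light chain phosphorylation, 0.40 for SRF partners and 0.21 for all tested genes.

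Markers of the labelled cell type and of other contractile cells were read beside these results. Here counts of markers at 1 FPKM or more use the mean deposited FPKM, while levels and sums are rescaled. Counts of calls stand beside 28.7% called higher and 23.5% called lower over all tested genes. All 10 joined fibroblast markers were at a mean of 1 deposited FPKM or more in both species, with COL1A1 at 4638 to 4871 in pika and 4677 to 4896 in mouse. Of these 10, 5 were not called, 1 was called higher in pika (DCN) and 4 lower (COL3A1, COL5A1, PDGFRA and PDGFRB). Alike levels of COL1A1 thus do not stand for the list. COL3A1 had a pika mean of 22.9 beside a mouse mean of 955, and PDGFRA had 3.47 beside 65.1. Their log2 fold changes, -5.32 and -3.89, lay below the 5th percentile of all tested genes (-3.61). Those of COL5A1 (-1.68), PDGFRB (-1.04) and DCN (1.22) were smaller in size. Of 10 joined vascular smooth muscle and pericyte markers, 5 reached 1 deposited FPKM in pika and 6 in mouse, with summed levels of 134 to 156 and 204.5 to 247 in the same order. They split between species, 4 called higher in pika, among them the channel genes KCNJ8 and ABCC9, and 4 lower, among them RGS5, NOTCH3 and RGS4. KCNJ8 was listed at 0 in 2 of the mouse libraries. Of 8 skeletal muscle markers, none reached 1 deposited FPKM in pika and 2 did in mouse, with summed rescaled levels of 2.21 to 2.79 in pika and 203 to 232 in mouse. Nearly all of the mouse sum was ACTA1, another actin, at 187 to 219, while CKM was listed at 0 in every library of both species. Among 10 joined keratinocyte markers, 1 reached 1 deposited FPKM in pika and 2 in mouse, with summed rescaled levels of 63.5 to 77.5 in pika and 58.5 to 68.4 in mouse. These sums came from different genes. PERP averaged 70.4 ± 7.46 in pika, against 2.66 ± 1.15 in mouse (SD, n = 3 each), and was called higher. DSP, at 0.153 ± 0.0420 in pika against 45.2 ± 2.22 in mouse, and SFN, at 1.05 ± 0.0492 in pika against 10.8 ± 1.55 in mouse, were called lower. KRT10, listed at 0 in all pika libraries, averaged 5.04 in mouse, below the minimum for testing. KRT5 and KRT14 were listed at 0 in each pika library and were at most 0.66 in a mouse library. The part of these cell types in the differences was not tested.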

How the data were processed

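The deposited tables hold 1 FPKM value per gene for each RNA-seq library. Per the submitters' processing notes, the tools were CASAVA 1.9, featureCounts, STAR 2.6.1a and edgeR 3.28.1, in no stated order, and GRCm38 was the one build named. Which annotation lay behind each table was not given in the sources used here.

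Pika rows carry symbols, and 49326 of 49585 mouse identifiers were given symbols from a gene table. A symbol found once in each species joined 14418 genes, and 10348 with a mean of 1 deposited FPKM or more in at least 1 species were tested. In R 4.3.3, limma-trend (version 3.58.1) was fitted on log2(rescaled FPKM + 1), two-sided, with Benjamini-Hochberg adjustment over all tested genes. Shares used an exact permutation test (scipy 1.17.1). The planned shares with CNN2, MYL12A and MYL12B could not be formed, since those genes were matched in mouse alone, and the CNN1 share of CNN1 and CNN3 was added after seeing the data.

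The FPKM steps gave whole reads, gene model lengths and library totals, with a tolerance of 0.002 reads. Replicate pairs did not repeat each other, with a mean chi-square per gene of 1.33 to 2.74. The scripts were tested on simulated data. Some results are not reported here.

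The 10 genes and all lists were chosen with earlier results of these data known. All 10 may be named, and from each pathway list up to 4 called genes of largest change and up to 2 further genes of highest level, with the 3 genes outside the lists most like CNN1. Cell type markers and the filament genes with a CArG box were named after their values were seen. RefSeq symbols, coordinates and promoters are of GRCm38.p6. TMM and median-of-ratios factors were computed by own code from their published definitions. The remaining steps ran in Python 3.11.15 with pandas 2.3.3, matplotlib 3.10.9 and numpy 2.4.6.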

Additional observations from a re-analysis of the deposited data

How the results depend on the processing

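Of the 10 genes, CNN1, MYL9, MYH11, MYLK and TAGLN2 kept their direction and call under all 17 alternatives run. Without rescaling, 8 of the 9 were called and 4 of these as higher, while over all tested genes 6029 were then higher and 1106 lower, and over the pathway lists 19 higher and 6 lower. With the filter at 5 FPKM, 1584 of all tested genes were lower, where fewer genes were tested. TAGLN turned to -0.051 with TMM, -0.076 with median-of-ratios scaling, -0.25 on reads without gene length and -0.26 with voom on reads. CNN3 turned to -0.090 with TMM and -0.12 with median-of-ratios scaling. CALD1 turned to 1.195 and SRF to 0.31 without rescaling, as did MYL6 (0.26), MYH9 (0.81) and CSRP1 (1.13). MYL6 also turned on reads (0.24) and with voom (0.23). ELK3 (-0.0077) turned with median-of-ratios scaling, and ELK4 with TMM (-0.032), median-of-ratios scaling (-0.056), reads (-0.88) and voom (-0.89). The cause was not tested. Leaving out each library in turn gave 5 called genes of the 9 each time, 5386 to 5411 calls over all tested genes and 18 to 20 over the pathway lists. Same-numbered libraries of the species did not deviate together (correlations -0.009, 0.048 and 0.009), and with the replicate block 5 of the 9 and 5405 of all tested genes were called. The shares involving CNN2, MYL12A or MYL12B were not run. The MYH11 share of the heavy chains differed by -2.15 percentage points on reads without gene length, against -3.98. In pika, CNN1 rests on 7 reads and ACTG2 and ACTA1 on 3 each, or multiples of these, so depth limits their ratios.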

Other observations

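Genes whose RefSeq mouse promoter held a CArG box were looked at as a group, chosen after seeing the data and given with no test. Pika was higher in 30 (22.2%) and lower in 44 (32.6%) of the 135 that were tested, with a median log2 fold change of -0.36. Among the 8235 tested genes with any promoter entry, 28.7% were higher and 22.7% lower, with a median of 0.22. On reads without division by gene length, 21.8% of the CArG genes were higher and 40.6% lower, against 25.3% and 26.8% of all genes with an entry. Without rescaling, 45.2% of the CArG genes were higher and 14.1% lower, against 58.8% and 9.71%. Among these genes are MYL9, called lower, SRF, not called, and the skeletal muscle actin ACTA1, called lower. These named genes do not stand for the group, in which 30 were called higher. ACTA1 was at 0 to 0.367 rescaled FPKM in pika and 187 to 219 in mouse. The filament genes with a CArG box in this window were FHL1, FHL2, FILIP1L and VCL, 4 of the 17 with an entry. Of these, FHL2 and VCL were called lower in pika, and FHL1 and FILIP1L were not called.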
